A study of Lotus japonicus with 12 samples.

Results

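Mature root nodules of the legume Lotus japonicus were compared between cpop1 mutant plants and wild-type (WT) plants at 21 days post inoculation (dpi). The comparison rests on 6 of the 12 libraries of the series: 3 cpop1 and 3 WT libraries, chosen by the genotype and age in their labels. The other 6 libraries come from young nodules of the same genotypes at 10 dpi and are used here only to set values beside those of the mature nodules. The mutant genotype is labelled cpop1/hemf2, and all plants, WT included, had been inoculated with Mesorhizobium loti strain MAFF 303099. The sources used here give neither the allele nor the number of mutant lines. They do not say either whether replicate libraries come from separate plants, so each p-value reflects the spread among these samples alone, and that spread may be technical.

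Rhizobia fix nitrogen inside nodules, organs that the legume root forms for them. Heme, which the plant makes through the tetrapyrrole pathway, is the prosthetic group of leghemoglobins, the abundant oxygen-binding proteins of infected nodule cells. They supply the bacteroids with oxygen while keeping free oxygen low, as nitrogenase is inactivated by it. The series title names CPOP1 as a heme synthesis enzyme, and the comparison asks which transcripts depend on it once nodules are mature.

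Levels are in FPKM, the fragments of a feature divided by its length in kilobases and by the library size, so they are corrected for length and are relative to the library. The features carry IDs without gene names, and of the 29531 rows 0 could be matched to RefSeq genes (LjGifu_v1.2). No gene name, function or sequence is therefore given, and the level of the mutated gene and of nodule marker genes, which would check the labels, was not analysed here. What an ID does show is its chromosome number and its place in the numbering along it, whether it has the suffix _LC, whether it carries an organelle letter (C or M), or whether it belongs to the 3548 rows named BGI_novel. Read depth is unknown. Correlations across tested features of log2(FPKM + 1) were 0.989 to 0.991 within cpop1, 0.986 to 0.988 within WT and 0.763 to 0.786 between the genotypes. The median SD of a feature across 3 libraries was 0.122 in cpop1 and 0.146 in WT on the log2 scale. Those values are across features and serve as a description of the libraries.

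Most of the measured transcriptome differed between cpop1 and WT nodules. Of 20172 features tested, those at 1 FPKM or more in at least 3 of the 6 libraries, 15409 (76.4%) passed the test: 7887 (39.1%) were higher and 7522 (37.3%) lower in cpop1 (limma, Benjamini-Hochberg adjusted p under 0.05). At least 2-fold changes on the log2(FPKM + 1) scale were found in 4196 features that rose (20.8%) and 3256 that fell (16.1%), together 36.9% of those tested. The remaining 7957 features called, 51.6% of all calls, changed by less than 2-fold. In bulk nodules, fewer cells of a type and less RNA per cell cannot be told apart.

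**Figure D1:**
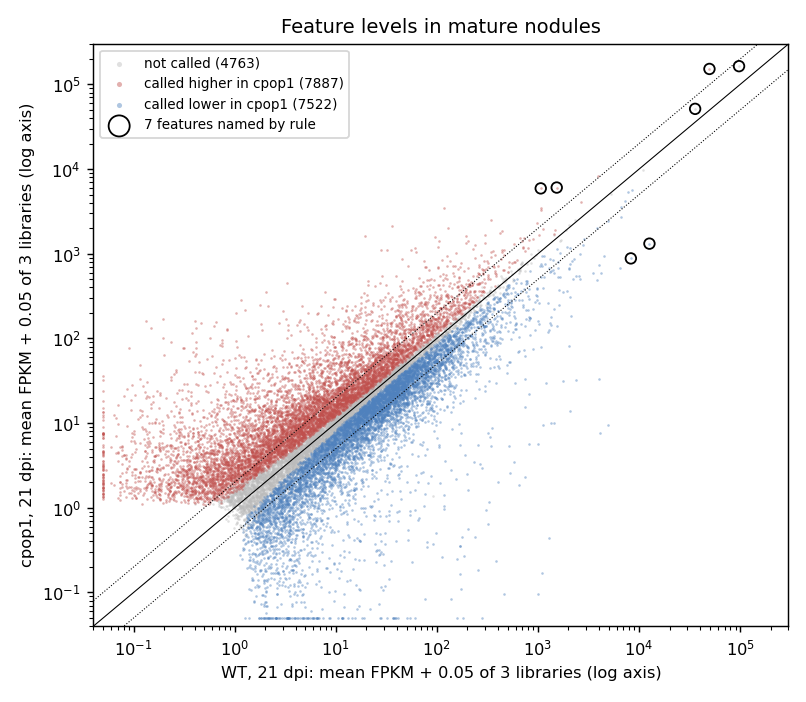
Mean level of each tested feature in cpop1 (vertical axis) and WT (horizontal axis) nodules at 21 dpi, as FPKM + 0.05 on log axes, with 3 libraries per group. Each point is a feature coloured by its call, the solid line marks equal levels, the dotted lines mark 2-fold differences, and circles mark the 7 features named by rule. The 7887 features called higher and the 7522 called lower fan out above and below the line, while the 3 circles at the top right lie above the line of equal levels.

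The groups of libraries did not overlap in 79.0% of tested features, 40.4% with the cpop1 libraries higher and 38.6% with them lower. The median absolute log2 change over all tested features was 0.75, against a median standard error of 0.13. Of the 4763 features that did not pass the test, 4373 (91.8%) had a 95% confidence interval of the change that lay within 2-fold in both directions. For 2527 of them (53.1%) the interval lay within 0.5 on the log2 scale.

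Increases outnumbered decreases among moderate changes, and decreases outnumbered increases at 64-fold or more. At 8-fold or more, 509 features had risen and 283 had fallen, and at 16-fold or more the counts were 177 and 146 (153 and 157 after a shift to a common median). At 32-fold or more 62 had risen and 84 had fallen, but with a pseudocount of 0.1 in place of 1 the order turned, with 257 up and 228 down. At 64-fold or more 24 had risen and 48 had fallen. The order at 64-fold held under each of the 4 other scalings tried, with 23 to 28 features up and 46 to 54 down, and with a pseudocount of 0.1, though narrowly, with 120 up and 130 down. The order at 2-fold did not: 3715 rose and 3828 fell after rescaling to a common total, and 3615 and 3884 after a shift to a common median. Of the 177 features that rose and the 146 that fell by 16-fold or more, 66 and 41 were at 1 FPKM or more in all 6 libraries. The others passed the filter with some libraries under 1 FPKM. At 64-fold the features at 1 FPKM or more in all 6 libraries were not counted apart, so the order there may follow from the filter.

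The majority also differed with the features counted. Of the tested features, 1423 (7.05%) were at 1 FPKM or more in the 3 cpop1 libraries and in no WT library, and 841 (4.17%) in the 3 WT libraries and in no cpop1 library. These passed the filter through the group in which they were high and had to differ. Among the 15877 features at 1 FPKM or more in all 6 libraries, 5744 (36.2%) were called higher and 6147 (38.7%) lower in cpop1. Each cpop1 library had 19169 to 19382 features at 1 FPKM or more, against 18486 to 18616 in WT libraries, without overlap. The difference of means was 734 features (p = 0.1 by an exact two-sided permutation test, below which 3 against 3 libraries cannot go).

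The library composition itself differed. The 3 features with the highest mean level are all on chromosome 5. Together they took up 30.6%, 29.6% and 31.6% of summed FPKM in the cpop1 libraries, against 16.9%, 17.8% and 15.3% in the WT libraries. The groups did not overlap, with a difference of 14.0 percentage points (exact permutation test, two-sided, p = 0.1). Since FPKM are corrected for length, these are shares of FPKM and not of reads. The 17 features ranked 4 to 20 went the other way as a group, with on average 5.74% of the sum in cpop1 and 9.38% in WT. Of these 17, 11 were called lower and 4 higher in cpop1.

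**Figure D2:**
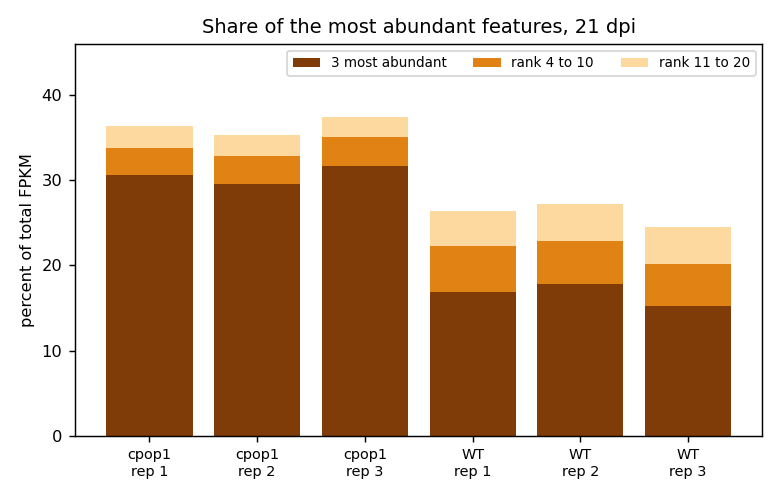
Share of total FPKM (vertical axis, percent) held by the most abundant features in each library at 21 dpi, with features ranked by their mean over the 6 libraries. The lowest segment, the 3 most abundant features, covers 29.6% to 31.6% in cpop1 and 15.3% to 17.8% in WT, while the segments of ranks 4 to 20 are narrower in cpop1.

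Among the 3 dominant features, LotjaGi5g1v0046500 passed the test. It stood at 148054, 152653 and 155813 FPKM in the cpop1 libraries, against 52516, 52922 and 43412 FPKM in the WT libraries. All cpop1 libraries were far above all WT libraries, and the log2 change was 1.62 ± 0.29 (SE; adjusted p = 0.000959, limma). LotjaGi5g1v0024700 was at 164464, 151198 and 176570 FPKM in cpop1, against 97261, 103675 and 91133 FPKM in WT. Its groups did not overlap either, yet its log2 change of 0.75 ± 0.33 missed the threshold (limma adjusted p = 0.064). LotjaGi5g1v0024900 was at 50962, 48214 and 55026 FPKM in cpop1 and 35678, 37314 and 34437 FPKM in WT, also without overlap (log2 change 0.52 ± 0.22, limma adjusted p = 0.0597).

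The calls for these 3 features depended on the fit. Those of the other 4 features named by rule, which were picked from the calls, did not. The main fit lets limma set the expected spread by level. Without this trend, the adjusted p of limma was 0.000326 for LotjaGi5g1v0024700 and 0.00143 for LotjaGi5g1v0024900. After rescaling without the 3 features it was 0.0204 for LotjaGi5g1v0024700 and 0.0154 for LotjaGi5g1v0024900. Quantile normalization, which gives every library the same set of values, brought the log2 changes to -0.18 for LotjaGi5g1v0024700, 0.00 for LotjaGi5g1v0024900 and 0.18 for LotjaGi5g1v0046500, none of them called. Without a filter on low values LotjaGi5g1v0046500 was not called either (limma adjusted p = 0.0822).

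Outside these 3 features, total FPKM was 832712 ± 8349 in cpop1 and 915292 ± 21370 in WT (SD, n = 3 libraries each), a difference of -9.02%. Bringing this remainder to a common total shifted the median log2 change over all tested features to 0.14, against 0.02 with FPKM as deposited. It then gave 8746 features higher and 6642 lower in cpop1, or 56.8% of calls higher, against 51.2% with FPKM as deposited. After a shift to a common median the share was 45.6%, so the direction of the overall majority depended on the scaling. Of the 15409 calls, 14527 were called in the same direction after rescaling without the 3 features and 0 in the opposite one.

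Outside the 3 dominant features, loss of FPKM as deposited was concentrated in fewer features than gain. Over all rows these 3 features alone made up 40.1% of the summed gain. Apart from the dominant 3, the differences of mean FPKM summed to 276461 over the 14917 rows that were higher in cpop1 and to -359041 over the 13210 rows that were lower. Of the summed gain, 50% lay in 291 rows, and of the summed loss, 50% lay in 138 rows. These sums were not repeated after rescaling, and this remainder was lower in cpop1 as deposited (-9.02%). Calls among the most abundant features leaned the same way. Of the 85 tested features with a mean of 1000 FPKM or more, 23 (27.1%) rose and 51 (60.0%) fell, 16 and 36 of them by at least 2-fold, with a median log2 change of -0.74. Under the 19 alternatives, 29.3% to 38.9% of the calls in this class were higher in cpop1, and its median change lay between -0.86 and -0.29. With FPKM as deposited, each cpop1 library had 73 to 78 features at 1000 FPKM or more, against 98 to 110 in WT.

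Lower levels showed other proportions. Among 1545 features with a mean of 100 to 1000 FPKM, 43.2% rose and 41.8% fell. Among 8644 features at 10 to 100 FPKM, 35.7% rose and 44.5% fell. Among 9374 features at 1 to 10 FPKM, 40.8% rose and 30.4% fell. For the 524 features with a mean under 1 FPKM the shares were 54.8% and 23.7%. Features that passed the filter through 1 group alone, 1423 through cpop1 and 841 through WT, were not taken out of these classes.

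Outside the dominant 3, the 2 features that gained most FPKM were both on chromosome 6. They were picked among those called at 2-fold or more whose groups did not overlap. LotjaGi6g1v0189800 was at 6286, 6104 and 5341 FPKM in cpop1, against 1018, 946 and 1227 FPKM in WT. The lowest cpop1 library was several times above the highest WT library, and it rose by 2.48 ± 0.13 on the log2 scale (SE; adjusted p = 9.4e-07, limma). LotjaGi6g1v0130800 was at 6240, 5963 and 5939 FPKM in cpop1, against 1554, 1639 and 1399 FPKM in WT, which is 1.98 ± 0.11 higher on the log2 scale (adjusted p = 1.06e-06, limma). Here too the groups were far apart.

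The 2 features that lost most FPKM, picked by the same rule, were on chromosome 1. LotjaGi1g1v0199700 was at 1028, 1225 and 1694 FPKM in cpop1, against 13261, 12432 and 12249 FPKM in WT. Every cpop1 library was far below every WT library (log2 change -3.29 ± 0.18, limma adjusted p = 1.26e-06). LotjaGi1g1v0273300 was at 898, 908 and 835 FPKM in cpop1, against 7313, 8661 and 8874 FPKM in WT, with a log2 change of -3.23 ± 0.11 (adjusted p = 1.42e-07, limma). The calls of these 4 features, which were picked for large differences in the same libraries, held under all 19 alternatives.

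Young nodules gave the following levels of the 4 features. LotjaGi6g1v0130800 was at 655, 789 and 953 FPKM in cpop1 and 1165, 1198 and 739 FPKM in WT at 10 dpi. The groups overlapped through WT replicate 3 alone: without it the log2 change at 10 dpi was -0.58 (limma adjusted p = 0.00599), called lower in cpop1, against -0.35 (0.226) with it. LotjaGi1g1v0273300 was at 8385, 5585 and 3559 FPKM in cpop1 and 8527, 7932 and 2283 FPKM in WT at 10 dpi, also overlapping. LotjaGi1g1v0199700 was at 1195, 1279 and 1299 FPKM in young cpop1 nodules, against 7317, 6816 and 1040 FPKM in WT. Its log2 change at 10 dpi was -1.57 (limma adjusted p = 0.0779), and -2.49 (1.3e-06) without WT replicate 3, which lay below every cpop1 library. LotjaGi6g1v0189800 was at 2890, 4045 and 5487 FPKM in cpop1 and 1589, 1455 and 6124 FPKM in WT at 10 dpi. Its log2 change there was 0.73 (limma adjusted p = 0.262), and 1.40 (0.000336) without WT replicate 3. In all 4 features WT replicate 3 at 10 dpi lay apart from the other WT replicates of its age.

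**Figure D3:**
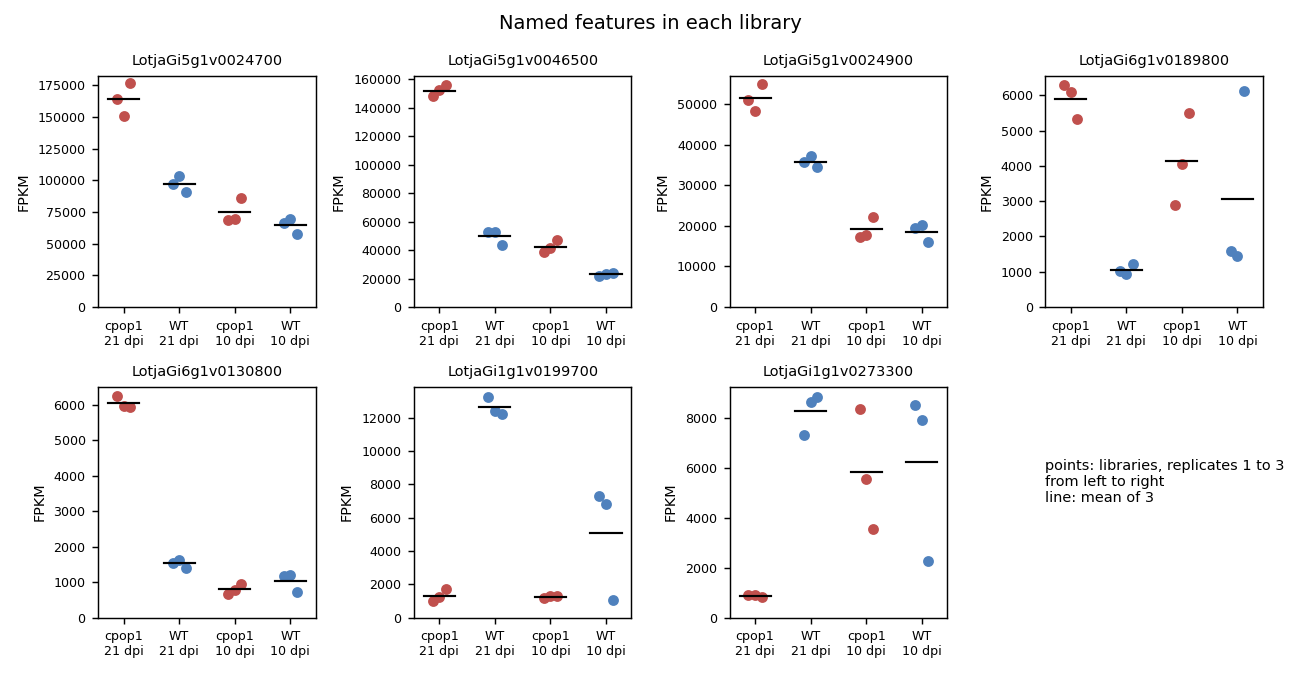
FPKM (vertical axes, from 0) of the 3 dominant features and of the 4 features with the largest gain or loss of FPKM, in cpop1 and WT nodules at 21 and 10 dpi. Points are libraries and lines are means of 3. At 21 dpi the cpop1 and WT libraries are apart in all 7 panels, which the naming rule required for the 4 features of gain or loss. At 10 dpi WT replicate 3 often stands away from the other WT libraries.

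Features with BGI_novel and _LC IDs fell more often than they rose. Of 2498 BGI_novel features tested, 573 (22.9%) rose and 1229 (49.2%) fell in cpop1, against 39.1% and 37.3% of all features tested. Of 2132 features with an _LC ID on chromosomes 1 to 6, 562 (26.4%) rose and 985 (46.2%) fell. Of 15479 features with a plain ID on these chromosomes, 6741 (43.5%) rose and 5302 (34.3%) fell. The median log2 change was -0.45 for BGI_novel, -0.32 for _LC and 0.13 for plain IDs, beside 0.02 over all tested features.

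Across the 19 alternatives the share of calls that were higher in cpop1 was 26.0% to 36.1% in BGI_novel, 30.9% to 41.0% in _LC and 50.3% to 61.8% in plain IDs. The classes differ in level, with a median of 2.84 FPKM for BGI_novel, 5.27 for _LC and 14.1 for plain IDs, so they were also counted at like levels. At a mean of 1 to 10 FPKM, 21.1% of BGI_novel features rose and 47.8% fell, whereas 50.5% of plain IDs rose and 22.8% fell. At 10 to 100 FPKM the shares were 27.0% up and 58.0% down for BGI_novel and 37.0% up and 42.7% down for plain IDs. At 100 FPKM or more they were 37.2% up and 54.7% down for 86 BGI_novel features and 42.8% up and 42.0% down for plain IDs. The _LC features rose in 26.0% and fell in 41.3% of cases at 1 to 10 FPKM, and rose in 24.2% and fell in 59.7% at 10 to 100 FPKM. The 75 _LC features at 100 FPKM or more did not lean toward loss, with 42.7% up and 41.3% down. Among features at 1 FPKM or more in all 6 libraries, 21.5% of BGI_novel features rose and 45.2% fell, 24.8% of _LC features rose and 47.5% fell, and 38.9% of plain IDs rose and 37.2% fell. The difference between the classes was not tested.

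**Figure D4:**
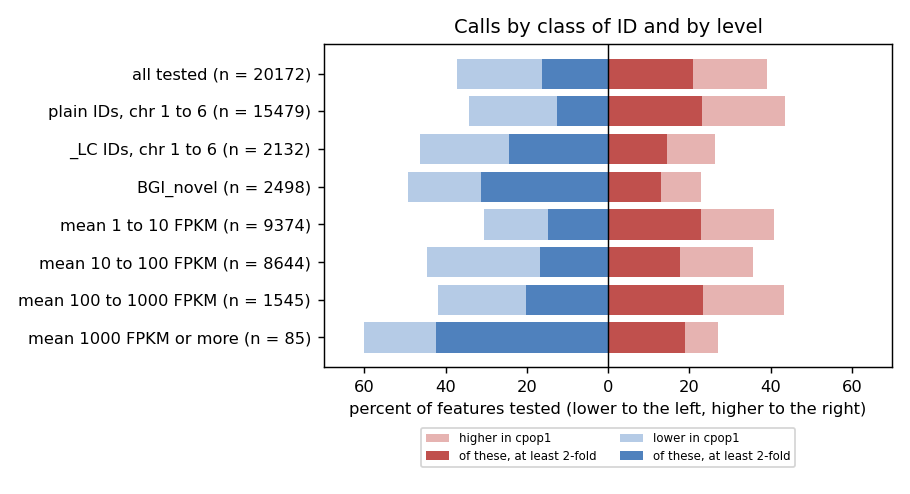
Percent of tested features (horizontal axis) called lower in cpop1, drawn to the left, and higher, drawn to the right, by class of ID and by mean level over the 6 libraries. Dark parts are changes of at least 2-fold. BGI_novel features fell in 49.2% and rose in 22.9% of cases, and features at 1000 FPKM or more fell in 60.0% and rose in 27.1%, whereas plain IDs rose in 43.5% and fell in 34.3%.

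BGI_novel features made up a larger share of large losses than of all features. Of the 146 features at least 16-fold lower, 41 were at 1 FPKM or more in all 6 libraries. BGI_novel were 12.4% of all tested features, 24.0% of those at least 2-fold lower, 45.2% of the 146 at least 16-fold lower and 47.9% of the 48 at least 64-fold lower in cpop1. Among increases they made up 7.75% at 2-fold, 10.7% of 177 at 16-fold and 12.5% of 24 at 64-fold. Features at 1 FPKM or more in the 3 WT libraries and in no cpop1 library, which had to fall, included 428 BGI_novel among 841, and the reverse set 199 among 1423. Among features at 1 FPKM or more in all 6 libraries, counted so after the data had been seen, BGI_novel were 7.73% of all, 12.2% of those at least 2-fold lower, 12.1% of those at least 4-fold lower and 10 of the 41 at least 16-fold lower. In the same set they were 4.51% of those at least 2-fold higher and 5 of the 66 at least 16-fold higher. The summed FPKM of BGI_novel rows was 2.89 ± 0.089% of the total in cpop1 and 4.99 ± 0.131% in WT (SD, n = 3 libraries each; exact two-sided permutation p = 0.1, and 0.122 adjusted over 11 classes). The groups did not overlap. Outside the 3 dominant features their share was 4.17% in cpop1 and 5.99% in WT.

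The chromosomes resembled each other. On each of chromosomes 1 to 6, 40.6% to 42.7% of tested features rose and 34.6% to 37.2% fell. Chromosome 5, which carries the 3 dominant features, took 39.6%, 38.8% and 40.7% of summed FPKM in the cpop1 libraries, against 28.1%, 29.2% and 26.9% in the WT libraries. Without those features it held 13.1% in cpop1 and 13.7% in WT, so its direction rested on them. IDs with an organelle letter were few and low. Of 28 tested IDs with the letter C, at a median of 1.93 FPKM, 8 (28.6%) rose and 0 fell (limma, with 9 up and 0 down at an unadjusted p under 0.05). Of all features tested, 39.1% rose and 37.3% fell. Of 23 tested IDs with the letter M, at a median of 1.52 FPKM, 1 rose and 1 fell. The summed share of C rows overlapped between the genotypes, with the highest value in WT replicate 3 (exact two-sided permutation p = 0.4).

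Some transcripts were present in 1 genotype and near absent in the other. Over all rows, 133 were under 0.1 FPKM in all 3 cpop1 libraries and at 1 FPKM or more in all 3 WT libraries, and 135 showed the reverse. These counts describe rows picked by their values and have no test. The kinds of ID differed: 82 of the 133 rows near absent from cpop1 (61.7%) were BGI_novel and 30 had plain IDs, while 27 of the 135 rows near absent from WT were BGI_novel and 90 had plain IDs. BGI_novel makes up 3548 of all 29531 rows.

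With at least 10 FPKM required in the expressing genotype, 28 rows were near absent from cpop1 and 12 from WT. Leaving out a library could only keep or raise these counts, since fewer libraries had to meet the limits. At most, 48 rows were near absent from cpop1, reached without cpop1 replicate 3. For WT the most was 22 rows, reached without WT replicate 1 or WT replicate 3. The 28 rows had a median of 27.2 to 31.7 FPKM in the WT libraries at 21 dpi. At 10 dpi their medians were 0.045 to 0.15 FPKM in the cpop1 libraries, and 10.3, 8.76 and 0.29 FPKM in WT replicates 1, 2 and 3. The 12 rows had medians of 16.95 to 19.37 FPKM in mature and 10.29 to 10.99 FPKM in young cpop1 nodules. In WT at 10 dpi their medians were 0.065, 0.04 and 5.27 FPKM in replicates 1, 2 and 3. In both sets WT replicate 3 at 10 dpi lay between the other WT libraries and the cpop1 libraries of its age.

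Above 100 FPKM, 3 rows were listed at 0 in every cpop1 library of 21 dpi, and 0 rows in the reverse direction met this limit. After rescaling without the 3 dominant features the counts were 2 and 0. The 3 rows are named here after their values were seen. LotjaGi2g1v0177000 was at 254, 320 and 260 FPKM in mature WT nodules. LotjaGi4g1v0196100 was at 141, 235 and 166 FPKM and BGI_novel_G001343 at 177, 194 and 107 FPKM in the same libraries. In young cpop1 nodules they were low but not at 0, with 1.2 to 4.18, 2.75 to 12.6 and 0.39 to 1.57 FPKM in the order named.

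Changed features had a slight tendency to lie beside each other in the numbering of the IDs. Of 17605 pairs of adjacent tested IDs on chromosomes 1 to 6, 8.19% were both called at 2-fold or more in the same direction, against 6.97% of pairs 10 places apart and 6.93% of pairs 50 places apart. Both fell in 2.56% of adjacent pairs and 1.95% of pairs 10 apart. The Pearson correlation of the log2 changes was 0.095 for adjacent IDs and 0.009 for those 10 places apart, over 17605 and 17551 pairs that share the same 6 libraries. Leaving out the 3 adjacent pairs with equal values in at least 3 libraries gave 8.17% and 0.095. Reads shared between similar copies could not be checked further.

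Changes of at least 16-fold were also counted by neighbour. Of the 80 features on these chromosomes at least 16-fold lower in cpop1, 9 (11.3%) had an adjacent tested ID that was also at least 16-fold lower, whereas 0.839% of all other tested features lay beside such a feature. Such a partner was found for 7 of the 80 at 2 and also at 3 places apart, for 4 at 5 places, for 0 at 10 places and for 2 at 50 places. Of the 9, 5 lie in a single stretch of chromosome 2 described next. Without its 10 IDs, 4 of 74 (5.41%) had an adjacent ID of the same kind, against 0.81% of the other features. Of 158 features at least 16-fold higher, 17 (10.8%) had an adjacent ID of the same kind, against 1.68% of the other features. These proportions were computed after the largest changes had been seen and have no test.

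The densest stretch of loss was on chromosome 2, from LotjaGi2g1v0176500_LC to LotjaGi2g1v0177400, and is described after its values were seen. Of its 10 consecutive tested IDs, 6 were at least 16-fold lower in cpop1. These 6 ranged from 0 to 3.04 FPKM over the cpop1 libraries and from 13.8 to 1256 FPKM over the WT libraries. LotjaGi2g1v0176900 was at 1.31, 2.45 and 3.04 FPKM in cpop1, against 658, 826 and 727 FPKM in WT (log2 change -7.85 ± 0.19, limma adjusted p = 3.85e-08). LotjaGi2g1v0177200 was at 0, 0 and 0.14 FPKM in cpop1, against 412, 594 and 369 FPKM in WT (log2 change -8.75). It passed the filter through the WT libraries alone and had to differ, so no p-value is given for it. For both IDs every cpop1 library was close to 0, far below the lowest WT library. Of the 6, LotjaGi2g1v0177000, LotjaGi2g1v0177300 and LotjaGi2g1v0177400 also passed the filter through the WT libraries alone and had to be lower.

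The loss did not cover the whole stretch. Of the other 4 IDs, 2 fell by less and LotjaGi2g1v0177100 did not pass the test. LotjaGi2g1v0176500_LC rose to 8.26, 9.5 and 9.44 FPKM in cpop1, against 0.29, 0.42 and 0.53 FPKM in WT. It passed the filter through the cpop1 libraries alone and had to be higher. LotjaGi2g1v0177100 was at 8.76, 9.59 and 9.28 FPKM in cpop1 and 10.9, 9.24 and 8.74 FPKM in WT, with a 95% interval of its log2 change from -0.31 to 0.20. At 10 dpi the 6 lost features ranged from 0 to 64.1 FPKM in cpop1, from 0.72 to 451 FPKM in WT replicates 1 and 2, and from 0.44 to 41.0 FPKM in WT replicate 3.

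**Figure D5:**
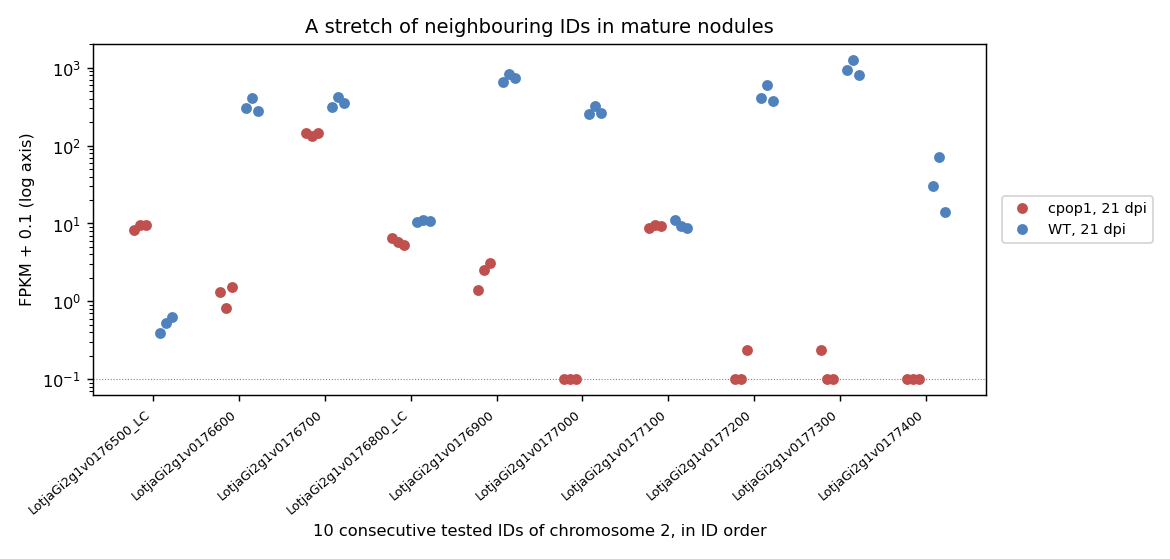
FPKM + 0.1 (log axis) of 10 consecutive tested IDs of chromosome 2 in each cpop1 and WT library at 21 dpi. Points on the dotted line are libraries in which the ID is listed at 0. For 6 of the IDs the cpop1 libraries lie at 3.04 FPKM or less and the WT libraries at 13.8 FPKM or more, while LotjaGi2g1v0177100 among them has overlapping groups.

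Unbroken runs of change were short. Of runs of at least 5 consecutive tested IDs called at 2-fold or more in 1 direction, 17 rose and 4 fell. On each of these chromosomes 20.29% to 23.45% of tested features were called at least 2-fold higher and 13.27% to 14.6% at least 2-fold lower. Runs of increase thus had more features to form from, and the difference in runs was not tested. The longest run of increase, reached on both chromosome 1 and chromosome 4, had 8 IDs. The run on chromosome 1, from LotjaGi1g1v0493500 to LotjaGi1g1v0494500, had mean levels of 7.07 to 116 FPKM in cpop1 and 0.537 to 43.1 FPKM in WT, with log2 changes of 1.42 to 4.13. It contains 2 IDs with equal values in all 6 libraries, LotjaGi1g1v0494000 and LotjaGi1g1v0494100, whose levels are uncertain and count as 1 observation. Both passed the filter through the cpop1 libraries alone and had to be higher. The longest run of decrease had 7 IDs on chromosome 1, from LotjaGi1g1v0072600 to LotjaGi1g1v0073500_LC, with log2 changes of -7.05 to -1.19. The last of them was at 0, 0 and 0.1 FPKM in cpop1, against 158, 126 and 125 FPKM in WT, and at 0 FPKM in WT replicate 3 of 10 dpi, where WT replicates 1 and 2 had 15.8 and 13.2 FPKM.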

How the data were processed

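RNA sequencing libraries of root nodules, 3 per genotype and age, are given as FPKM in 1 table deposited by the authors, per the file headers, with 1 column per library. The mutant's columns carry the name hemf2 and were tied to samples through the description in the labels. Per the submitters' processing notes, HISAT and Bowtie2 2.2.5 were used, in roles not stated. The build, annotation, FPKM software and the definition of BGI_novel and _LC rows: not given in the sources used here. FPKM are relative, so dominant transcripts shift all others. The 2 IDs that occur on more than 1 row (4 rows) were kept apart.

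log2(FPKM + 1) of the 6 libraries of 21 dpi was fitted with limma 3.58.1 (R 4.3.3; intensity trend), cpop1 minus WT, over 20172 features at 1 FPKM or more in at least 3 libraries. The scale understates changes of low features. The script was tested on simulated data. Shares were compared by exact permutation with SciPy 1.17.1. Named by rule were the 3 most abundant features, the 2 with the largest gain and the 2 with the largest loss of mean FPKM among calls of at least 2-fold without overlap, and the ends of the longest runs. The comparison, classes and rules were chosen with earlier results of these data known. Alternatives were other pseudocounts (0.1, 0.5), filters, scalings, a replicate block, fits with the 10 dpi libraries, other variance settings and each library left out.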

Additional observations from a re-analysis of the deposited data

Results flagged for a closer look

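For 2 of the 7 features named by rule, the effect of genotype at 21 dpi was unlike that at 10 dpi in a fit to all 12 libraries, a comparison added after the data had been seen. The features of largest gain and loss, which include both, were named for their 21 dpi difference. That choice favours a larger effect at 21 than at 10 dpi. LotjaGi6g1v0130800 differed in its effect, 21 minus 10 dpi, by 2.34 ± 0.30 in log2(FPKM + 1) (SE; limma adjusted p = 0.00069 over 22249 features), being higher in every cpop1 library at 21 dpi and overlapping at 10 dpi through WT replicate 3 alone, without which it was called lower in cpop1 at 10 dpi (-0.58, limma adjusted p = 0.00599). LotjaGi1g1v0273300 differed by -3.26 ± 0.66 (limma adjusted p = 0.00702), being lower in every cpop1 library at 21 dpi and overlapping at 10 dpi. Without WT 10 dpi replicate 3 the differences were 2.56 and -2.65 (limma adjusted p = 1.15e-05 and 0.000398). That library also decided 2 further features: the difference for LotjaGi6g1v0189800 was 1.75 with it (limma adjusted p = 0.0902) and 1.08 without it (0.0182), and that for LotjaGi1g1v0199700 was -1.73 with it (0.178) and -0.81 without it (0.0259).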

How the results depend on the processing

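The number of features called stayed within 1.5 times 15409 under all 19 alternatives, with 12537 in a fit to all 12 libraries, 15124 with a replicate block, 17016 without a filter on low values and 14483 to 15076 with single libraries left out. No call turned to the opposite direction in any of them. The share of calls higher in cpop1 (51.2%) fell under 50% with a filter of 5 FPKM (48.8%), a common total (46.1%), a common median (45.6%) and quantile normalization (47.4%). With the replicate block it was 51.4%, but replicate numbers did not pair the samples: same-numbered libraries deviated with correlations of 0.028, -0.042 and 0.031, and not every library correlated best with its own number. Of 589 values of the 31 features called among 34 followed by ID (by rule, runs, chromosome 2 stretch, listed at 0), 586 kept direction and call, 3 lost the call and 0 reversed. These features were picked by their values in the same libraries, so the kept calls are no independent support. Some also passed the filter through 1 group alone and had to differ. The values lost were those of LotjaGi5g1v0046500 given with its result and that of LotjaGi1g1v0072700 in the fit to all 12 libraries (log2 change -1.37). Features not called reversed in 3 values: LotjaGi5g1v0024700 to -0.18 under quantile normalization, and LotjaGi2g1v0177100 to 0.068 after rescaling without the 3 dominant features and to 0.031 without WT replicate 1 (-0.116 to 0.031 with single libraries left out). The cause was not tested. When total FPKM was taken without the 3 dominant features, the difference in share, cpop1 minus WT, reversed in several classes. It became 0.753 points for chromosome 2, 0.526 for chromosome 3, 1.24 for chromosome 4, 1.63 for chromosome 6 and 0.757 for _LC. For these classes only the denominator had changed. For chromosome 5 it became -0.539 points, with the 3 features also taken out of its own FPKM. In counts added after seeing the data, with single libraries left out, rows near absent from cpop1 and at 10 FPKM or more in WT numbered 29 to 48, and the reverse 13 to 22, since fewer libraries had to meet the limits. The 3 against 3 design cannot give an exact p under 0.1, and FPKM without read counts give no counting error.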
